A study of Homo sapiens with 6 samples.

Results

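Small nucleolar RNAs (snoRNAs) and small Cajal body RNAs (scaRNAs) were examined by RNA-seq in MDA-MB-231, an established line of human breast cancer cells that lack the estrogen receptor, either treated with vitamin C or left without it. The RNAs described were chosen by their raw counts: all genes were taken whose GENCODE symbol starts with SNORD, SNORA or SCARNA and whose mean raw count over the 6 libraries was at least 10. This gave 47 of 550 genes with such symbols and of 60675 genes in the files, namely 24 of 312 SNORD, 17 of 213 SNORA and 6 of 25 SCARNA genes. Since the count chose these members, their being measured is no finding. The treated group was 3 wells given 100 μM vitamin C as sodium ascorbate for 3 days, and the control group was 3 wells without added vitamin C. The medium was changed daily, and total RNA was extracted with the RNeasy Mini Kit and depleted of ribosomal RNA. The culture methods describe several wells per group within an experiment. The labels do not tie the wells to separate experiments, so that p-values measure the spread between wells, which may be technical. All values come from 1 cell line in culture.

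The small RNAs of the nucleolus and Cajal body guide chemical modification of other RNAs by base pairing. Box C/D RNAs (SNORD genes) carry the methyltransferase fibrillarin to ribosomal RNA, where it adds methyl groups to ribose, and box H/ACA RNAs (SNORA genes) carry the pseudouridine synthase dyskerin. Cajal body RNAs (SCARNA genes) have the boxes of one or both kinds and act on the small nuclear RNAs of the spliceosome. A few box C/D RNAs, among them U3, serve the cleavage of the ribosomal precursor instead. Most human snoRNAs are cut out of introns of host genes, whereas U3 and a few others have promoters of their own.

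Sequences of 7 members are given because the results below turn on them, and because they show the boxes by which the classes are defined. They are GENCODE 44 transcripts on GRCh38, written as DNA, 5′ to 3′. Capitals in the 5 RNAs of box C/D type, SCARNA7 among them, mark TGATGA, the core of box C, within the first 25 bases and CTGA, box D, within the last 20 bases. Capitals in SNORA33 and SCARNA21 mark ANANNA, box H, in the middle (40 to 65% of the length) and ACA within the last 10 bases.
SCARNA7, bases 1 to 150: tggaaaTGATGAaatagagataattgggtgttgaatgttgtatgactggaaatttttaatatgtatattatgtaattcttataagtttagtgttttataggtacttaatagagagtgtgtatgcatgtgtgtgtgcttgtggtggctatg
SCARNA7, bases 181 to 330: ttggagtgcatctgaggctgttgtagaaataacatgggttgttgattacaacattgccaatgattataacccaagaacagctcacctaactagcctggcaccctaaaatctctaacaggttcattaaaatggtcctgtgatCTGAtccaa
SNORD14A: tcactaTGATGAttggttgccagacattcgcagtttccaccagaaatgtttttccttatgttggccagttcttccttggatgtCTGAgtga
SNORD14E: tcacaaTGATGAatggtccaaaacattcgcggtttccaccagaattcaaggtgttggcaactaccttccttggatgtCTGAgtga
SNORD41: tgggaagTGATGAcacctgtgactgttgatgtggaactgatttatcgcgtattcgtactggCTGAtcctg
SNORD67: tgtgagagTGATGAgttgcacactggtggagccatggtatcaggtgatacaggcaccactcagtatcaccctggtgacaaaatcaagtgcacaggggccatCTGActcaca
SNORA33: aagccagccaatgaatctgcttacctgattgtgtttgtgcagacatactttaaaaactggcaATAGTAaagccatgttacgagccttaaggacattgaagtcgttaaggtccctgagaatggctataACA
SCARNA21: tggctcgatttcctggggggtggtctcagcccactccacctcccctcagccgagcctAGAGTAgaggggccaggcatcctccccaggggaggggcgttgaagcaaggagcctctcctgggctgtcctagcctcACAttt

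SCARNA7 lies at chr3:160514907-160515236 on the minus strand, within an intron of KPNA4. SNORD14A (chr11:17074654-17074744, minus strand, an intron of RPS13) and SNORD14E (chr11:123058077-123058161, minus strand, an intron of HSPA8) are copies of U14 with 77.4% identity. SNORD41 lies at chr19:12706449-12706518, minus strand, in an intron of TNPO2, and SNORD67 at chr11:46762389-46762499, minus strand, in an intron of CKAP5. SNORA33 lies at chr6:132817219-132817348, plus strand, in an intron of RPS12, and SCARNA21 at chr17:7906122-7906260, plus strand, in an intron of CHD3. The motifs were searched on the transcribed strand only, and the windows of a pair do not overlap in these RNAs. TGATGA was found in 16 of 24 SNORD members, in 0 of 17 SNORA members, in 1 of 6 SCARNA members (SCARNA7) and in 0.39% of 6336 other short noncoding transcripts of 60 to 350 bases. CTGA was found in 20 of 24, 4 of 17 and 2 of 6 members and in 6.01% of the other transcripts. ACA was found in 4 of 24 SNORD, 14 of 17 SNORA and 4 of 6 SCARNA members and in 8.74% of the others, and ANANNA in 4 of 24, 16 of 17 and 5 of 6 members and in 47.93% of the others. The labels of the classes and the letters in these windows thus ran together, with the exceptions counted.

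Gene counts numbered 13434130 to 19553914 in the vitamin C libraries and 17664345 to 22373591 in the control libraries. Unmapped read pairs made up 24.7% to 49.5% in the vitamin C libraries and 24.2% to 34.4% in the control libraries, with vitamin C 2 the highest. The mesenchymal marker VIM averaged 1256 ± 64.1 CPM in vitamin C wells and 1276 ± 45.3 CPM in control wells (SD, n = 3 each), while ESR1, the estrogen receptor, had 0 counts in every library. AXL and CD44, also listed as high, averaged 885 and 1143 CPM in vitamin C wells and 889 and 962 CPM in control wells. PGR, listed as absent or near 0, averaged 0.07 and 0 CPM in vitamin C and control wells. CDH1, listed likewise, was not absent. It averaged 3.89 ± 2.58 CPM in vitamin C wells and 1.57 ± 0.93 CPM in control wells (log2 fold change 1.33, edgeR adjusted p = 0.113). CPM is the count scaled to library size in counts per 1000000 after TMM scaling, a correction of library size that assumes that most genes do not change. Over all genes, edgeR called 531 of 15261 tested genes lower and 549 higher after vitamin C treatment at an adjusted p under 0.05. Upper-quartile factors gave 377 and 687 instead, and with TMM factors taken from genes of at most 400 exonic bases they were 218 and 1080.

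Most snoRNA genes gave too few reads to be described. Of the 550 named genes, 366 had 0 counts in all 6 libraries and 137 had counts but a mean under 10. Of the 366 genes at 0, 201 (54.9%) overlapped an exon of another gene on the same strand, against 10 of the 47 members (21.3%), and reads that fall in several genes were not assigned to a gene by the authors' counting, so a 0 does not show that an RNA was absent. SNORD118, which makes the U8 RNA needed for processing of the ribosomal precursor, and SCARNA2 were among the genes at 0 with such an overlap. Both have transcription units of their own in human cells. Median gene length was 134 bases for members and 94 bases for the other named genes. How fully the extraction kit recovered RNAs of such lengths, and whether it did so alike in each well, was not tested. Just inside the minimum were SNORD69 with a mean of 10.2 counts and SNORD93 with 10.7, and just outside were SNORA55 with 9.50 and SNORA22C with 8.83.

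**Figure D1:**
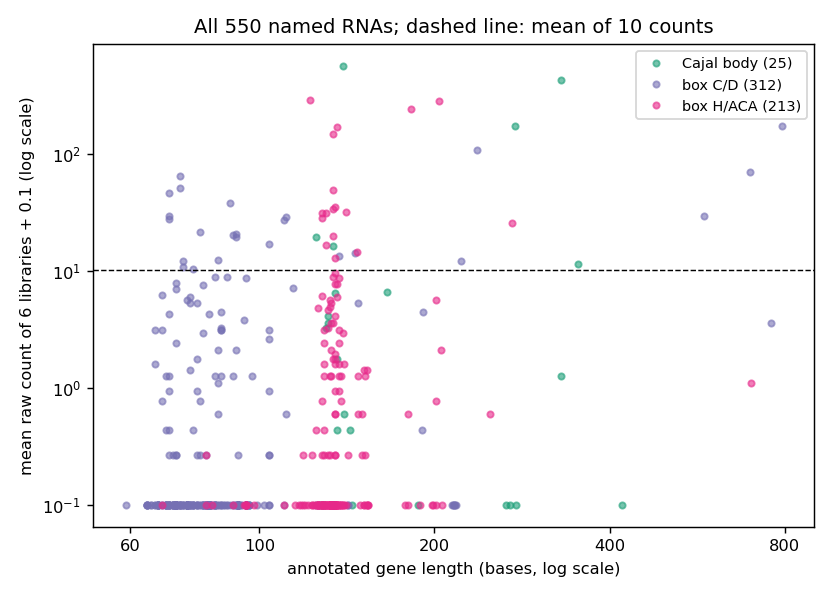
Mean raw count over the 6 libraries plus 0.1 (vertical, log scale) against annotated gene length in bases (horizontal, log scale) for all 550 named genes, one point each, coloured by class. The 47 members lie on or above the dashed line at 10 counts, and the 366 genes without a count form the row at the bottom.

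Levels per length differed widely among members. On the scale of CPM per kilobase of gene, averaged over both groups, SCARNA21 was highest at 220 and was followed by SNORA26 at 133, SNORA73B at 78.4, SNORA23 at 73.6, SNORA49 at 69.6 and SCARNA7 at 68.9. The highest SNORD member was SNORD6 at 51.2, and the lowest member of all was SCARNA9 at 1.79, an RNA that guides methylation of the U2 small nuclear RNA. Medians per class were 21.3 for SCARNA, 12.1 for SNORD and 13.3 for SNORA members. This scale is rough, since the shortest members, of 70 bases, are shorter than the reads that the paper describes. The counts of such RNAs need not grow with length. The U3 members were divided by GENCODE models of 581 to 791 bases, against 217 bases in RefSeq. In libraries of this kind the reads of an intronic gene may come from the mature RNA or from the intron of the host precursor, and gene counts cannot tell these apart.

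After vitamin C treatment the small RNAs lay mostly somewhat below control, and 2 passed the test. All 47 members passed edgeR's filter on low counts. SCARNA7 and SNORD3B-2 were called lower by edgeR, which is 2 of 47 members (4.26%) beside 3.48% of all genes tested, and no member was called higher, beside 3.6% of all genes. The share of called members was thus near the background. Both were also called by DESeq2, beside 3.36% of all genes called lower by both tools. The log2 fold change (vitamin C relative to control) had a median of -0.28 for the members and 0.02 over all genes tested. Of the members, 33 had an estimate below 0 and 14 above, beside 7265 below and 7996 above among 15261 genes tested. A lower level can be fewer molecules per cell or fewer cells with the RNA, which cannot be told apart in bulk samples. At an unadjusted edgeR p under 0.05, 10 members (21.3%) were lower, beside 13.1% of all genes tested, and 2 (4.26%) were higher, beside 14.3%. In 12 of 47 members (25.5%) every vitamin C well lay below every control well, beside 16.6% of all genes tested. In 2 members (4.26%) every vitamin C well lay above, beside 15.7%. The members' median was -0.28 with RLE factors, -0.24 with upper-quartile factors and -0.19 with TMM factors from short genes, where the median of all genes was 0.11. The call count was 0 lower without control 1, beside 59 of 15819 genes tested. It was 5 lower when vitamin C 1 was left out, beside 157 of 15695 genes. When vitamin C 3 was left out it was 3 lower and 2 higher, beside 958 and 942 of 15430 genes. Without the filter on low counts it was 8 lower and 2 higher, beside 1166 and 1079 of 33769 genes.

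**Figure D2:**
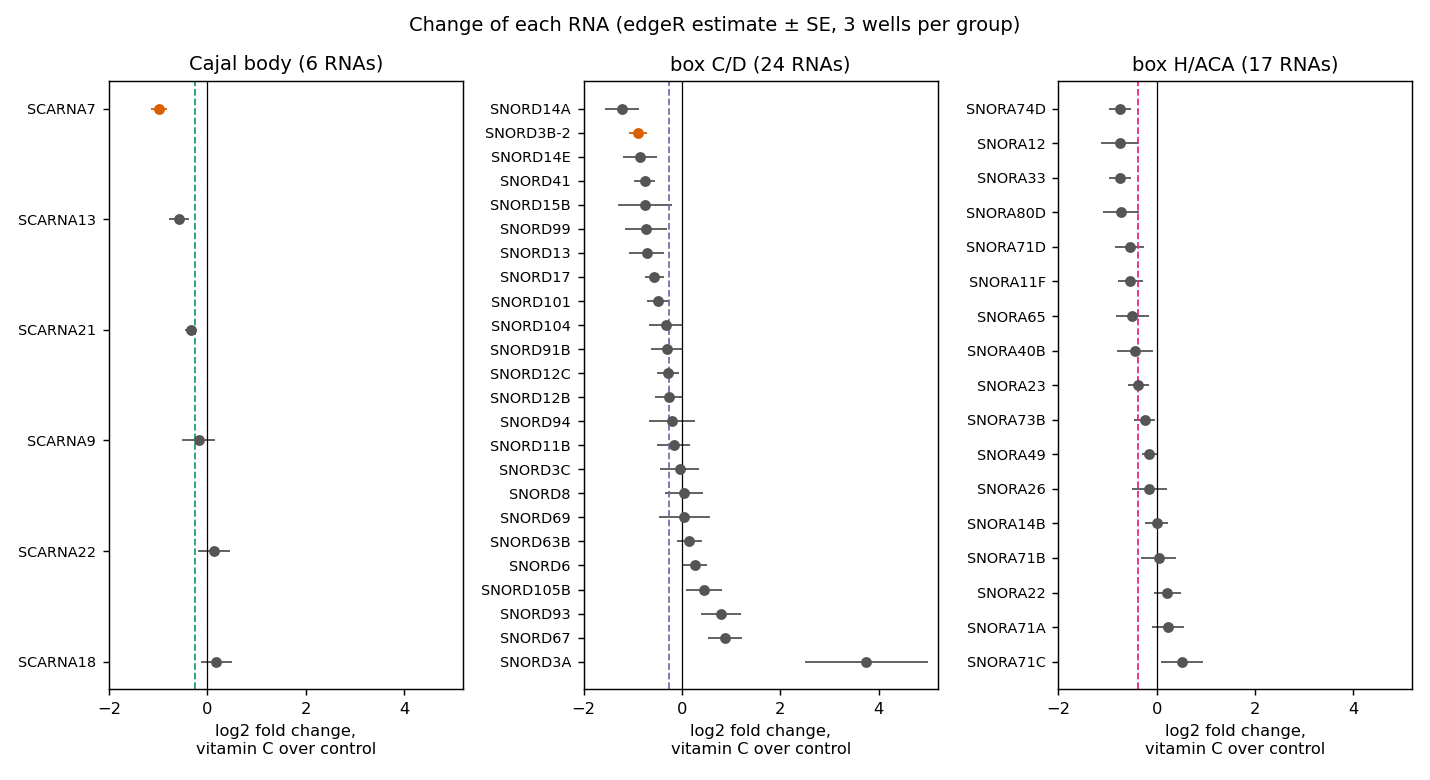
Change of the 47 members in vitamin C relative to control wells (log2 scale, horizontal), in panels by class. Each point is an edgeR estimate with its SE as a bar (3 wells per group), dashed lines are class medians, and orange marks an adjusted p under 0.05. Only SCARNA7 and SNORD3B-2 are orange, and SNORD3A stands alone at 3.75.

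The Cajal body RNAs had 1 called member of 6, beside 3.48% of all genes tested called lower. With 6 members, 1 call cannot set this class apart from the others. The summed level of the class was lower in every vitamin C well. SCARNA7, also known as U90, is a box C/D RNA that guides methylation of the U1 small nuclear RNA. It had 15.5, 11.5 and 18.5 CPM in vitamin C wells 1, 2 and 3, against 34.6, 31.7 and 24.6 CPM in control wells 1, 2 and 3. The groups did not overlap, and the highest vitamin C well lay below the lowest control well. Its log2 fold change was -0.98 (SE 0.17, edgeR adjusted p = 0.0113, DESeq2 adjusted p = 8.931e-07), which is 50.6% of the control level. Without control 1 the edgeR adjusted p was 0.0546, and with each other library left out it was 0.0016 to 0.0492.

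SCARNA21, the most abundant member, guides pseudouridylation of the minor spliceosome's U12 RNA. It had 22.7, 28.2 and 30.6 CPM in vitamin C wells, against 30.2, 38.6 and 33.6 CPM in control wells. The groups met, since vitamin C 3 lay just above control 1, and the log2 change of -0.33 (SE 0.12, edgeR adjusted p = 0.115) did not pass. It passed without vitamin C 3, the highest vitamin C well (-0.43, edgeR adjusted p = 0.0439). With each other library left out the edgeR adjusted p was 0.145 to 0.343. SCARNA13, an RNA made of a tandem pair of H/ACA units, had 9.19, 4.71 and 8.43 CPM in vitamin C wells, against 9.39, 11.9 and 11.9 CPM in control wells. Its groups did not overlap, with little room between vitamin C 1 and control 1, and its log2 change of -0.57 (SE 0.20, edgeR adjusted p = 0.103) did not pass either. SCARNA13 overlaps an exon of its host SNHG10 and, on the other strand, an exon of GLRX5, so that its count may share reads with them. The other 3 members, SCARNA9, SCARNA18 and SCARNA22, averaged 0.59, 1.01 and 1.18 CPM in vitamin C wells and 0.68, 0.87 and 1.04 CPM in control wells, with log2 fold changes of -0.17, 0.18 and 0.14 that did not pass. The 6 RNAs together made 51.1, 46.7 and 59.8 CPM in vitamin C wells, against 76.9, 84.5 and 72.9 CPM in control wells, a ratio of means of 0.67. SCARNA7 and SCARNA21 make up most of this sum.

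**Figure D3:**
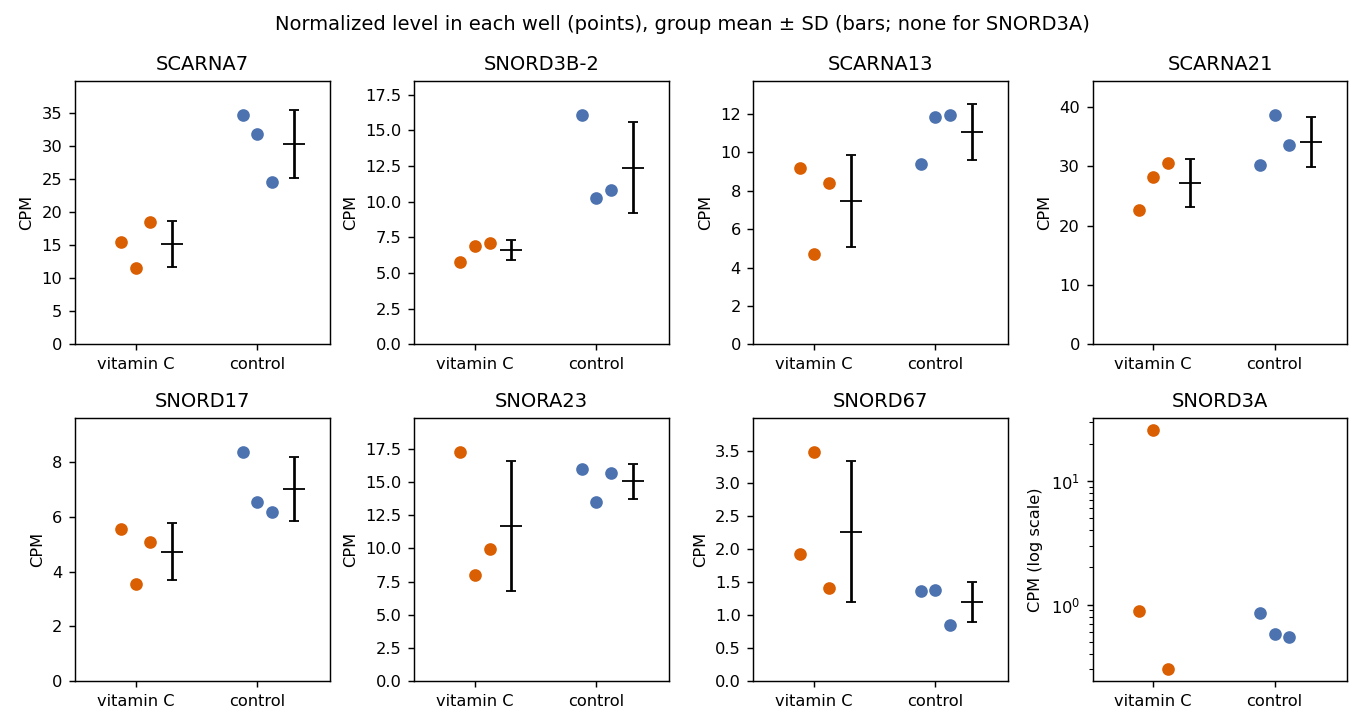
Normalized level (CPM, vertical) of 8 members in each well, vitamin C left and control right. Points are wells and bars are mean ± SD (n = 3). SNORD3A is drawn on a log axis without bars. In SCARNA7, SNORD3B-2, SCARNA13 and SNORD17 the vitamin C wells lie below the control wells, in SNORD67 above, and in SNORA23 vitamin C 1 lies above the controls and vitamin C 2 and 3 below them.

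Among the box C/D RNAs the genes of U3 were the most varied. U3 is the abundant RNA that binds the ribosomal precursor and is needed for the cleavages that release 18S rRNA. SNORD3B-2 (chr17:19063346-19064136, minus strand) had 5.78, 6.88 and 7.13 CPM in vitamin C wells, against 16.1, 10.3 and 10.8 CPM in control wells. All vitamin C wells lay below the controls, of which control 1 stood apart upward. The log2 fold change was -0.89 (SE 0.18, edgeR adjusted p = 0.0211, DESeq2 adjusted p = 0.000438). It did not pass without control 1 (edgeR adjusted p = 0.0628) or without vitamin C 1 (0.0607). SNORD3A (chr17:19188016-19188714, plus strand) had 0.89, 26.1 and 0.30 CPM in vitamin C wells, from 12, 360 and 6 reads, against 0.85, 0.58 and 0.55 CPM in control wells. Its log2 change of 3.75 (SE 1.25, edgeR adjusted p = 0.084) did not pass. It was -0.25 without vitamin C 2. With single libraries left out it passed only without vitamin C 3, its lowest vitamin C well (4.36, edgeR adjusted p = 0.0099). SNORD3C had 2.74, 1.45 and 0.90 CPM in vitamin C wells, against 2.56, 1.20 and 1.39 CPM in control wells, with a log2 fold change of -0.05. SNORD3B-1 had 0 to 4 reads in vitamin C wells and 2 to 7 reads in control wells, and was no member.

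The U3 values have a limit that the annotation shows. RefSeq gives each U3 gene 217 bases, while the GENCODE models are 791 bases for SNORD3B-2, 699 for SNORD3A and 581 for SNORD3C. Over the first 217 bases these genes were 99.1% to 99.5% identical, and over the rest 62.8% to 80.8%. Reads that match several copies are counted in none, so how much of each value is mature U3 and how much is the stretch downstream of it cannot be told apart.

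Of the 24 SNORD members, 16 had an estimate below 0 and 8 above, and their median log2 fold change was -0.27. In 6 of them (25%) every vitamin C well lay below every control well, beside 16.6% of all genes tested, and in 2 (8.33%) above, beside 15.7%. Both U14 genes were among the 6. U14 serves cleavage of the ribosomal precursor and guides methylation of 18S rRNA. SNORD14A had 1.11, 0.36 and 0.55 CPM in vitamin C wells, against 1.42, 1.51 and 1.69 CPM in control wells, a log2 change of -1.22 (SE 0.34, edgeR adjusted p = 0.0537). SNORD14E had 0.44, 0.58 and 0.40 CPM in vitamin C wells, against 1.08, 0.75 and 0.75 CPM in control wells, a log2 change of -0.85 (SE 0.35, edgeR adjusted p = 0.138). The wells of either gene were apart, yet neither passed with all libraries. With single libraries left out, SNORD14A passed only without vitamin C 1, its highest vitamin C well (-1.70, edgeR adjusted p = 0.0364). The reads behind them were few, with 5 to 15 for SNORD14A and 6 to 8 for SNORD14E in vitamin C libraries.

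SNORD41, a guide for 28S rRNA, had 2.30, 1.45 and 1.86 CPM in vitamin C wells, against 3.47, 2.80 and 3.23 CPM in control wells, a log2 change of -0.76 (SE 0.21, edgeR adjusted p = 0.0547). SNORD17, a longer guide for 28S rRNA, had 5.56, 3.55 and 5.07 CPM in vitamin C wells, against 8.37, 6.53 and 6.17 CPM in control wells, a log2 change of -0.56 (SE 0.19, edgeR adjusted p = 0.0876). Both were below control in every vitamin C well without passing the test. SNORD13, the U13 RNA, has a promoter of its own and helps the acetylation of 18S rRNA. It had 0.96, 0.29 and 0.80 CPM in vitamin C wells, against 1.25, 1.07 and 1.14 CPM in control wells, and its log2 fold change was -0.72 (SE 0.35, edgeR adjusted p = 0.214). The 2 members above control in every well were SNORD67, which guides methylation of the U6 small nuclear RNA, and SNORD93. SNORD67 had 1.93, 3.48 and 1.41 CPM in vitamin C wells, against 1.37, 1.38 and 0.85 CPM in control wells, a log2 change of 0.88 (SE 0.35, edgeR adjusted p = 0.126). With single libraries left out it passed only without vitamin C 3, its lowest vitamin C well (1.17, edgeR adjusted p = 0.0349). Of the other U6 guides, SNORD8 had a log2 change of 0.04 (SE 0.39) and SNORD94 of -0.20 (SE 0.47), and the difference between guides was not tested. Of the more abundant intronic members, SNORD6 had a log2 change of 0.27 (SE 0.24) and SNORD101 of -0.49 (SE 0.22).

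The box H/ACA RNAs had no called member of 17 by edgeR or DESeq2, beside 3.48% of all genes tested called lower by edgeR. Of the 17, 13 had an estimate below 0 and 4 above, and the median log2 fold change was -0.37. At an unadjusted edgeR p under 0.05, 2 (11.8%) were lower, below the 13.1% of all genes tested, and 0 were higher, beside 14.3%. The 2 were SNORA74D, of the U19 family, and SNORA33, both guides for 28S rRNA. SNORA33 had 1.48, 1.01 and 1.30 CPM in vitamin C wells, against 2.16, 2.22 and 1.99 CPM in control wells, a log2 change of -0.74 (SE 0.23, edgeR adjusted p = 0.0671). SNORA74D had 1.11, 1.30 and 1.41 CPM in vitamin C wells, against 2.28, 2.35 and 1.84 CPM in control wells, with the same size of change, -0.74 (SE 0.23, edgeR adjusted p = 0.0663). In these and in SNORA11F and SNORA80D, 4 of 17 members (23.5%), the vitamin C wells lay below all control wells, beside 16.6% of all genes tested.

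The most abundant H/ACA RNAs split the vitamin C wells. SNORA26 had 28.2, 7.82 and 10.4 CPM in vitamin C wells 1, 2 and 3, against 15.5, 15.4 and 19.9 CPM in control wells. SNORA23 had 17.3, 7.97 and 9.94 CPM in vitamin C wells, against 16.0, 13.5 and 15.7 CPM in control wells. SNORA71D had 11.5, 4.49 and 4.52 CPM in vitamin C wells, against 10.13, 8.21 and 11.1 CPM in control wells. In all 3, vitamin C 1 was the highest of the 6 wells while vitamin C 2 and 3 lay below every control. Their log2 fold changes were -0.15, -0.37 and -0.55 with all libraries and -0.88, -0.74 and -1.12 without vitamin C 1, where each passed (edgeR adjusted p = 0.0344, 0.0354 and 0.0228). SNORA26 and SNORA71D overlap an exon of another gene, so that their counts may share reads with it. SNORA49 had the same order of wells, with 11.3, 8.62 and 7.18 CPM in vitamin C wells, against 9.91, 9.41 and 10.4 CPM in control wells. Without vitamin C 1 it did not pass (-0.34, edgeR adjusted p = 0.222). SNORA73B, the U17 RNA needed for an early cleavage of the ribosomal precursor, had 19.4, 13.9 and 10.7 CPM in vitamin C wells, against 22.4, 15.1 and 14.3 CPM in control wells. Its groups overlapped (log2 fold change -0.25, SE 0.21), as did those of SNORA49 (-0.15, SE 0.16). Over all 47 members, vitamin C 1 was the highest well in 15 and the lowest in 8, vitamin C 2 was the lowest in 18, and vitamin C 3 was the lowest in 15 and the highest in 0.

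**Figure D4:**
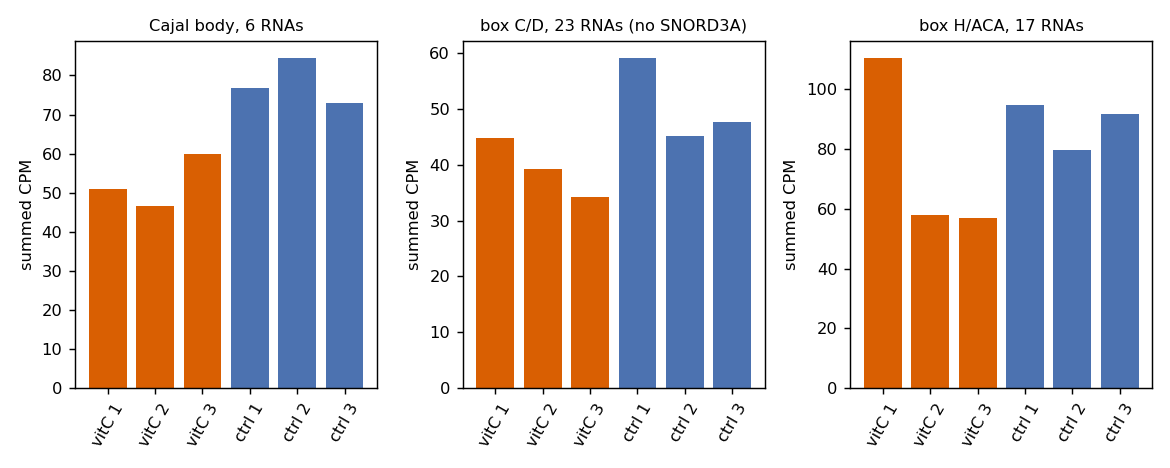
Summed CPM of each class in each well (bars, vertical axis from 0), vitamin C wells left in orange and control wells right in blue, with SNORD3A left out of the box C/D sum. The Cajal body sum is lower in all 3 vitamin C wells, and the box H/ACA sum is highest in vitamin C 1.

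Summed over the 17 H/ACA members the level was 110, 58.0 and 56.8 CPM in vitamin C wells, against 94.9, 79.6 and 91.7 CPM in control wells. The box C/D members without SNORD3A together made 44.8, 39.2 and 34.3 CPM in vitamin C wells, against 59.1, 45.1 and 47.6 CPM in control wells. With SNORD3A the sum of vitamin C 2 was 65.3 CPM, the highest of the 6 wells. The ratio of means was 0.67 for Cajal body RNAs, 0.78 for box C/D RNAs without SNORD3A and 0.85 for H/ACA RNAs. Median log2 fold changes ran in the opposite order, at -0.25 for Cajal body, -0.27 for all box C/D and -0.37 for H/ACA members. Of the 6 Cajal body members, 4 had an estimate below 0 and 2 above. Within their sum, SCARNA7 alone averaged 15.2 CPM in vitamin C wells and 30.3 CPM in control wells. The Cajal body sum and, by a small margin, the box C/D sum without SNORD3A did not overlap between groups, and the H/ACA sum did. No test was made of these sums or of the difference between classes.

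Since intronic members are made from the transcript of a host gene, each was set beside the longest protein-coding or long noncoding gene that holds it on the same strand. Of the 47 members, 42 had such a host, 34 of them lying in an intron and 8 touching an exon, and the hosts were 37 genes. For SNORD17, SNORA26 and SNORD105B the gene so chosen averaged 0 to 0.03 CPM, and for SNORA22 it had no value. These members therefore have no tested host and are not among the pairs below. Whether another gene is their source was not tested. Among 33 hosts tested, edgeR called RPS3, RPS13 and TSR1 lower, beside 3.48% of all genes tested, and 0 higher, beside 3.6%. The median log2 fold change was -0.10. At an unadjusted edgeR p under 0.05, lower or higher, were 10 of the 33 hosts. Of all genes tested, 13.1% were lower and 14.3% higher at that p. The count of hosts covers both directions and is to be set beside the sum of these shares, not beside either alone. RPS3 and RPS13 encode ribosomal proteins and TSR1 a factor for maturation of the small ribosomal subunit. DESeq2 called RPS3, RPS13, TSR1 and HSPA9, the host of SNORD63B (log2 fold change -0.23, DESeq2 adjusted p = 0.0172). Over all genes DESeq2 called 857 lower, of 13472 given an adjusted p. By edgeR no host was called without control 1 or without control 2. The member lay below its host in log2 fold change in 24 of 38 pairs, 5 of 6 for Cajal body RNAs, 9 of 18 for box C/D and 10 of 14 for H/ACA RNAs. SCARNA7 and its host KPNA4, an importin, differed in this way, as KPNA4 had a log2 change of -0.10 (SE 0.07, edgeR adjusted p = 0.389).

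Per 1000 reads of the host in the same well, SCARNA7 had 104, 76.5 and 121 reads in vitamin C wells, against 199, 203 and 158 reads in control wells. SNORD41 had 41.9, 24.9 and 36.6 reads per 1000 of TNPO2, an import receptor, in vitamin C wells, against 62.4, 58.5 and 60.9 in control wells. The groups did not overlap for either (exact permutation test, two-sided, p = 0.1, which is the smallest that 3 wells against 3 allow, adjusted p = 0.25 over 5 such ratios). For SNORD14A on RPS13, SNORA33 on RPS12 and SNORA74D on MATR3 the groups overlapped (exact p = 0.2, 0.2 and 0.9). The MATR3 entry used is the longer of a pair that carry that symbol and overlap, and reads that fall in several genes were not assigned. It held 25, 47 and 49 reads in vitamin C wells and 73, 91 and 71 reads in control wells. The SNORA74D ratio therefore rests on few host reads and does not show whether SNORA74D follows MATR3. These 5 members were chosen after their values were seen.

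**Figure D5:**
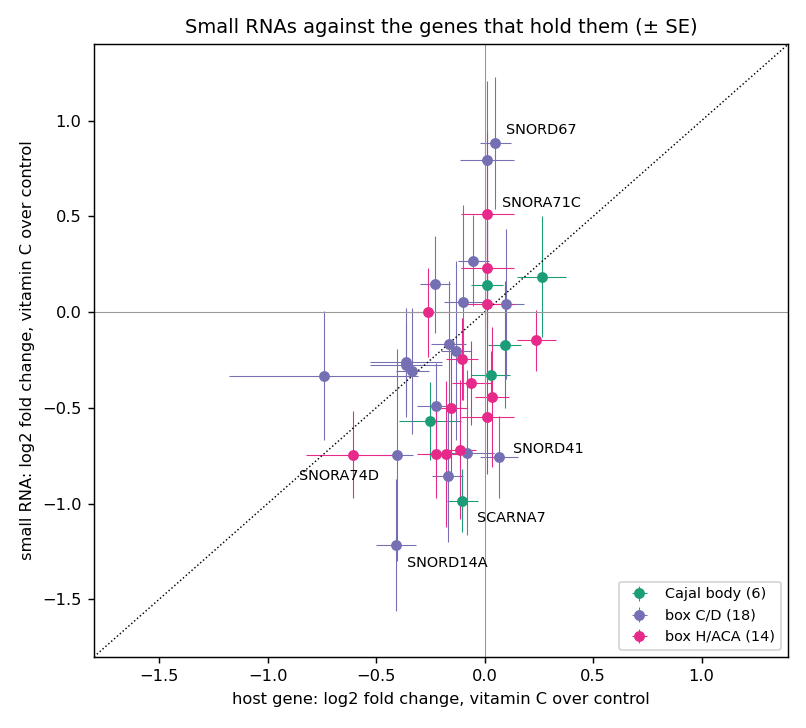
Change (log2, vitamin C relative to control) of 38 members (vertical) against that of their host genes (horizontal), with SE bars, coloured by class. The dotted line marks equal change. SCARNA7 lies below the dotted line, at -0.98 against -0.10 for its host KPNA4, as do 24 of the 38 members.

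Members of 1 host can be set side by side. SNHG17, a long noncoding RNA with a log2 fold change of 0.01, holds SNORA71A, SNORA71B, SNORA71C and SNORA71D. The copies had log2 fold changes of 0.23 (SE 0.32), 0.04 (SE 0.36), 0.51 (SE 0.43) and -0.55 (SE 0.30). None passed, and whether the copies differ from each other was not tested. SNORA71A, SNORA71C and SNORA71D touch an exon of SNHG17, so that their counts may share reads with it. The model of SNORA71B has 272 bases, against 136 in RefSeq. These RNAs guide the same kind of change on 18S rRNA, and the 134-base copies A, C and D were 83.1% to 86.6% identical. RPS12 holds SNORD101 (-0.49) and SNORA33 (-0.74) and had a log2 fold change of -0.22. ZFAS1 holds SNORD12B (-0.26) and SNORD12C (-0.28) and had -0.36.

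The proteins that work with these RNAs had small estimates, mostly below 0. Of 34 genes in 5 lists chosen for function, edgeR called 4 lower, beside 3.48% of all genes tested, and 0 higher. The other 30 did not pass, and the median log2 fold change was -0.15. DESeq2 called 7 of the 34, where over all genes it called 857 lower, of 13472 given an adjusted p. Of the 4 core proteins of box C/D particles, FBL, which is the methyltransferase fibrillarin, and SNU13, which binds the RNA first, were lower. FBL averaged 40.4 CPM in vitamin C wells and 50.5 CPM in control wells (log2 fold change -0.32, edgeR adjusted p = 0.0376), and SNU13 averaged 53.2 and 70.7 CPM in vitamin C and control wells (-0.40, edgeR adjusted p = 0.0399). None of the 4 H/ACA core proteins passed by edgeR, though all 4 estimates lay below 0, while DESeq2 called 2 of them lower. These were DKC1, encoding dyskerin (-0.24, edgeR adjusted p = 0.101, DESeq2 adjusted p = 0.0494), and NOP10 (-0.35, edgeR adjusted p = 0.0645, DESeq2 adjusted p = 0.0274). BCCIP was lower among 10 assembly factors (-0.33, edgeR adjusted p = 0.0269), and MTREX, the helicase of the nuclear exosome, among 7 genes of 3′ end processing and decay (-0.29, edgeR adjusted p = 0.0452). None of 9 Cajal body and nucleolar chaperone genes passed by edgeR. DESeq2 called 1 of them, NOLC1, the most abundant (-0.25, edgeR adjusted p = 0.0745, DESeq2 adjusted p = 0.0268), and COIL, encoding coilin, was at -0.06. The count of 4 was 0 without any single control library or vitamin C 1, 1 when vitamin C 2 was left out and 6 when vitamin C 3 was left out. It was 2 with upper-quartile factors and 0 with TMM factors from short genes.

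Other short RNAs give the setting. Of 370 tested genes of at most 400 exonic bases, 18 were called lower and 12 higher, the median log2 fold change being -0.01, and of the 326 that are no members 17 and 12 were called, with a median of 0.03. The 33 small nuclear RNAs among them had 8 lower and 0 higher, with a median of -0.62. Further stable short RNAs listed for comparison numbered 4. TERC, the H/ACA-type RNA of telomerase, averaged 0.12 CPM in vitamin C wells and 0.11 CPM in control wells. RMRP and RPPH1 are listed at 0, and RN7SK was not analysed here. As with the snoRNA genes at 0, such values do not show that an RNA was absent.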

How the data were processed

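RNA was measured in 6 libraries of MDA-MB-231 cells, 3 per group by the sample labels. Deposited values were raw counts, 1 file per library and 1 row per Ensembl gene. The submitters' processing notes name CASAVA 1.4, Trim Galore, STAR and hg38. Neither the Ensembl release nor the strand setting is stated there, and reads of antisense neighbours may therefore be shared. Summary lines (unmapped, multimapping, without a gene, ambiguous) held 50.6% to 69.7% of read pairs and were left out. The joint table of the 6 samples repeated these counts and was not used.

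Symbols and positions came from GENCODE 44 on GRCh38, which held 93.2% of identifiers and at least 99.7% of gene counts. Counts were tested in R 4.3.3 with edgeR 4.0.16 (TMM factors of 0.972 to 1.02, filterByExpr with a minimum count of 10, quasi-likelihood F test, Benjamini-Hochberg adjustment over 15261 genes). DESeq2 1.42.0 was run beside it, because the study's methods used both. SE was the log2 fold change divided by the square root of F. Replicates of a group were not duplicates (chi-square of paired libraries over degrees of freedom, 4.99 to 24.3). On simulated counts for the vitamin C against control comparison, with 200 genes of 10 to 600 mean counts changed among 15026 tested, edgeR found 35.8%, 68.7% and 90.9% of genes changed 1.5-fold, 2-fold and 3-fold, and 12 of its 142 calls were false.

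The members, lists and tests were chosen with earlier results of these data known. The rule for named genes took every called member with its host, the 5 members of each class with the highest mean CPM, SNORD3A, SNORD118, SNORD13 and SCARNA2 as genes with a unit of their own, SCARNA7, the genes nearest the count minimum, and called or most abundant genes of the protein lists. SNORD14A, SNORD14E, SNORD41, SNORD67, SNORA33, SNORA74D and other members named beyond it were chosen after their values were seen. Alternatives were RLE and upper-quartile factors, TMM factors from short genes, no filter on low counts, DESeq2, a replicate block, each library left out, and members that overlap no other exon.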

Additional observations from a re-analysis of the deposited data

How the results depend on the processing

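SCARNA7 and SNORD3B-2 were the called members under RLE, upper-quartile and short-gene TMM factors, DESeq2 and the replicate block, and without control 2, control 3 or vitamin C 2. Without any filter on low counts, 2245 of 33769 genes were called. Among members 8 were lower and 2 higher (6 box C/D, 1 H/ACA and 3 Cajal body), with 6 host genes and 8 protein genes. The cause was not tested. Beside SCARNA7 and SNORD3B-2, the members that passed there were SNORD3A at 3.71, SNORD67 at 0.86, SCARNA21 at -0.35, SCARNA13 at -0.59, SNORD14A at -1.24, SNORD17 at -0.58, SNORD41 at -0.78 and SNORA71D at -0.57. Protein genes called numbered 2 with upper-quartile factors, 0 with short-gene TMM factors and 7 by DESeq2.

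Leaving out 1 library at a time gave 128 to 1900 calls over all genes, 0 to 5 members lower, 0 to 2 higher, 0 to 3 box C/D members, 0 to 3 H/ACA members, 0 to 2 Cajal body members, 0 to 5 host genes and 0 to 6 protein genes. The log2 fold change ranged from -1.17 to -0.83 for SCARNA7, from -1.02 to -0.67 for SNORD3B-2 and from -0.25 to 4.36 for SNORD3A. It ranged from -0.24 to 0.32 for SCARNA22, from -0.11 to 0.39 for SCARNA18, from -0.88 to 0.15 for SNORA26 and from -0.34 to 0.0042 for SNORA49. The sign turned for SCARNA22 and SCARNA18 without vitamin C 1, for SNORA26 without vitamin C 2 (0.15) or vitamin C 3 (0.09) and for SNORA49 without vitamin C 3.

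Replicate numbers did not pair the wells, as deviations of same-numbered libraries correlated at -0.02, -0.06 and -0.04. With the replicate number as a block, edgeR called 731 genes, 2 members lower and 0 protein genes. The median member had a mean of 29.0 reads per library, which limits the size of change that can be seen.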
